A study of Mus musculus with 10 samples.

Results

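The 8 genes described here encode the mouse MHC class II molecules and the proteins that load and control them: H2-Aa, H2-Ab1, H2-Eb1, H2-DMa, H2-Oa, H2-Ob, Cd74 and Ciita. They were chosen by name from the 18193 genes that the arrays measured, and each was represented by its brightest probe set, judged by the mean of the 10 arrays. The arrays measured RNA of mouse bone marrow cells in 3 groups. In 4 arrays the cells carried AML1/ETO with the W692A substitution (W692A), in 3 arrays intact AML1/ETO, the leukaemia fusion of the transcription factor RUNX1 with the corepressor ETO, and in 3 arrays the empty GFP/MigR1 vector (GFP). The substitution lies in the MYND domain, the part of ETO that binds the corepressors SMRT and N-CoR, and the comparisons ask what each fusion changed and what the substitution altered. All groups came from C57BL/6 mice of 5 to 6 weeks, were grown with IL-3, IL-6 and SCF, underwent a pair of retroviral transductions, and were sorted 48 hours after the second as 25000 live, GFP-positive, lineage-negative, Sca1-positive and cKit-positive cells. The labels describe independent transductions but do not say whether each used other mice, so p-values measure the spread between these samples. The fusions were delivered by a retrovirus to cultured cells and were not read out at protein level in these data.

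MHC class II molecules are pairs of an alpha and a beta chain that display peptides from the endocytic pathway to CD4-positive T cells. B cells, dendritic cells and activated macrophages carry much of them, and mouse haematopoietic stem and progenitor cells can also carry some. Ciita, the class II transactivator, binds no DNA itself. It joins a complex of RFX, CREB and NF-Y proteins on conserved elements called the X and Y boxes, which lie upstream of class II genes and of Cd74. C57BL/6 mice make only the I-A molecule from H2-Aa and H2-Ab1, because their H2-Ea gene is not expressed, so the H2-Eb1 chain has no partner.

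Of these genes, 6 lie in the MHC region of chromosome 17, in the order H2-Oa, H2-DMa, H2-Ob, H2-Ab1, H2-Aa and H2-Eb1; Ciita and Cd74 lie on other chromosomes. The RefSeq promoter table (GRCm38.p6) held entries for 5 of the 8 genes, H2-Aa, H2-Eb1, H2-Oa, H2-Ob and H2-DMa, each covering 250 bases before and 50 after a start of transcription. In 4 of the 5, shown here because they carry the element through which the family is known to be controlled, the letters GCAAC of an X box core were followed on the same strand by ATTGG, the reversed CCAAT of a Y box, 15 to 35 bases further on. This spacing and these letters were chosen after the promoters had been read. The promoters printed below lie at chr17:34287774-34288073 on the minus strand (H2-Aa) and, on the plus strand, at chr17:34305617-34305916 (H2-Eb1), chr17:34092129-34092428 (H2-Oa) and chr17:34238655-34238954 (H2-Ob), and capitals mark each match of either motif on either strand.
H2-Aa: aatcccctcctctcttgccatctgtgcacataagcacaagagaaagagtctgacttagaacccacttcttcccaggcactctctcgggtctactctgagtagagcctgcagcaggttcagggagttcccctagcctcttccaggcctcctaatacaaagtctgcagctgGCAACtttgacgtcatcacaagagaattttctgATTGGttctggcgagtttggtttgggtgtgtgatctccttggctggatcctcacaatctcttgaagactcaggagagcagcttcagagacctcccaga
H2-Eb1: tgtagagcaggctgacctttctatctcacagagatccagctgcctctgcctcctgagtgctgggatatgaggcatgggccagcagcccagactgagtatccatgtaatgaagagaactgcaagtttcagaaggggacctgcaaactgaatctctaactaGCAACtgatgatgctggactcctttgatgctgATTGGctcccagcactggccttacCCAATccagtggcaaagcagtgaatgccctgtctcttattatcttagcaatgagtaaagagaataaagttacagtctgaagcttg
H2-Oa: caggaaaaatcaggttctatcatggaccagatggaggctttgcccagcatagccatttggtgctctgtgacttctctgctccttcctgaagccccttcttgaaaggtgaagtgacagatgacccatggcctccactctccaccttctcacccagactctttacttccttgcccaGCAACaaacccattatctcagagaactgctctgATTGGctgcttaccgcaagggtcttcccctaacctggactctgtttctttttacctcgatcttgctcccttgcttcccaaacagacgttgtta
H2-Ob: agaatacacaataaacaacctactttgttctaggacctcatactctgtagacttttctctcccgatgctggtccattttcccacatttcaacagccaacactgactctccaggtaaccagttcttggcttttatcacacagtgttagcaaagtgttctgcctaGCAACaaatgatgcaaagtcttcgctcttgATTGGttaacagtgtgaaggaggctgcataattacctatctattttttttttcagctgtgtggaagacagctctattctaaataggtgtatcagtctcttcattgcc

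The X box core began 81 bases before the start in H2-Aa, 91 in H2-Eb1, 76 in H2-Oa and 87 in H2-Ob. The gap to the Y box core was 28, 27, 28 and 25 bases in the same order. Of 32851 promoters of this length in the table, 35.2% held GCAAC on either strand, 37.4% held ATTGG on either strand and 1.02% held the spaced pair, and the motifs shared no bases in the promoters printed. H2-DMa, whose product loads peptides onto class II molecules, had the pair in neither of its 2 listed promoters, at chr17:34122582-34122881 and chr17:34125268-34125567. Sequence outside these 2 stretches was not searched, so the pair may lie at another start of H2-DMa. A match is a run of letters and not a measured binding site.

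**Figure D1:**
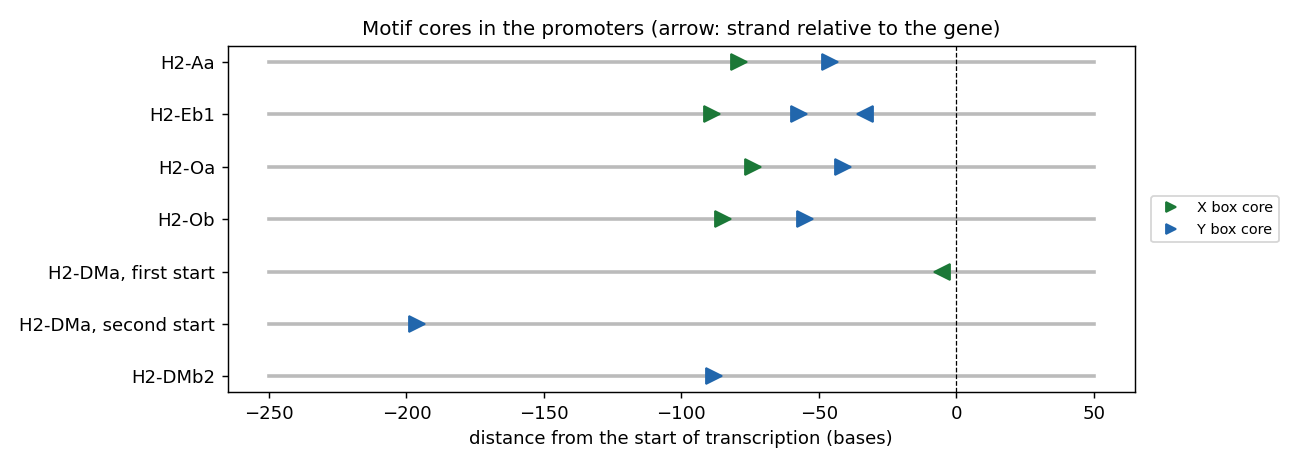
Positions of the X box core (green) and the Y box core (blue) in the promoters of the class II genes, as distance in bases from the start of transcription (dashed line), with arrows pointing along the strand that holds the motif. H2-Aa, H2-Eb1, H2-Oa and H2-Ob hold an X box core 76 to 91 bases before the start with a Y box core after it. Neither listed promoter of H2-DMa holds this pair, nor does the listed promoter of the H2-DMa partner H2-DMb2.

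Values are log2 intensities from the RMA method, on which a step of 1 is a doubling. Probe sets of different genes differ in brightness for technical reasons, so levels were compared within a gene. The exception is the summed intensity of cell type marker lists, in which the brightest probe sets weigh most. A background bound of 2.04 was taken from the brightest control probe set without a target in mouse RNA. Over 8301 genes with a mean above the bound, Pearson's r was 0.982 to 0.992 between arrays of 1 group and 0.887 to 0.962 between arrays of different groups. The Gapdh control signal at the 3′ end minus that at the 5′ end, which rises as the RNA or its amplified copies get shorter, ranged from 3.81 to 4.17 with W692A, from 4.01 to 5.04 with AML1/ETO and from 4.83 to 4.99 with GFP. With the gate's own marker Kit at or below the bound on every array, 8 of the 9 measured stem and progenitor markers, Cd34, Flt3, Gata2, Meis1, Procr, Hlf, Cd48 and Slamf1, were above it on at least 1 array.

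With AML1/ETO, 6 of the 8 class II genes fell against GFP and 0 rose (limma, adjusted p under 0.05 over all genes), and on each of the 6 every AML1/ETO array lay below every GFP array. H2-Ab1, H2-Eb1 and Cd74 fell about equally, to 48.1%, 48.2% and 49.4% of their GFP level, and H2-Aa and H2-Oa fell to 63.5% and 68.6%. H2-DMa and H2-Ob did not pass. Among all genes, 15.8% passed as lower and 12.9% as higher in this comparison, and 21.0% had AML1/ETO arrays that all lay below the GFP arrays. Counting only genes with a compared group mean above background, 29.9% passed as lower. The median log2 difference was -0.65 over the 8 genes and -0.02 over all genes. In cells measured in bulk, fewer cells that carry class II transcripts and less of the RNA per cell cannot be told apart.

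H2-Aa encodes the alpha chain of I-A. Its values were 9.67, 9.68 and 9.44 on the AML1/ETO arrays, against 10.32, 10.10 and 10.33 on the GFP arrays. The groups did not overlap, and the log2 difference was -0.66 ± 0.126 (SE, 3 arrays each, limma adjusted p = 0.000898). H2-Ab1, the I-A beta chain, had values of 5.93, 5.94 and 5.61 with AML1/ETO, against 7.17, 6.76 and 6.72 with GFP. Here too the groups stood apart, by -1.06 ± 0.220 (limma adjusted p = 0.00165).

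H2-Eb1 encodes the beta chain of the other class II molecule. It had 5.56, 5.04 and 4.64 with AML1/ETO, against 6.55, 5.78 and 6.06 with GFP. The AML1/ETO arrays were widely spread but all lay below the lowest GFP array, and the difference was -1.05 ± 0.240 (limma adjusted p = 0.00327). Cd74, the invariant chain, fills the groove of new class II molecules and guides them to the endosome. Its values were 6.15, 5.92 and 5.49 with AML1/ETO, against 7.35, 6.72 and 6.55 with GFP, again without overlap (log2 difference -1.02 ± 0.212, limma adjusted p = 0.00165).

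The peptide loading genes behaved unevenly. H2-Oa, the alpha chain of H2-O, which holds back the loading protein H2-M, had 3.26, 3.39 and 3.42 with AML1/ETO, against 3.94, 3.65 and 4.11 with GFP. The groups did not overlap and the log2 difference was -0.54 ± 0.179 (limma adjusted p = 0.0325), but the call was lost without GFP replicate 1 or 3 or any of the 3 AML1/ETO replicates, and with the Gapdh difference or the spike-in signal as a covariate. The H2-O beta chain gene H2-Ob had 2.99, 2.49 and 2.50 with AML1/ETO, against 3.13, 2.95 and 2.39 with GFP. These ranges overlapped, and the 95% interval of the log2 difference ran from -0.70 to 0.37 (limma adjusted p = 0.724). H2-DMa, the alpha chain of H2-M, which exchanges the invariant chain fragment for peptide, had 5.97, 6.23 and 5.80 with AML1/ETO, against 6.17, 5.96 and 5.95 with GFP. Its interval of -0.37 to 0.32 lies above the differences of -1.02 to -1.06 found for Cd74, H2-Eb1 and H2-Ab1 (limma adjusted p = 0.939).

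Ciita was close to background in every group. It had 1.10, 1.09 and 1.14 with AML1/ETO, against 1.52, 2.34 and 1.41 with GFP, and GFP replicate 2 was the only array of the 10 above the bound. The difference of -0.64 passed (SE 0.191, limma adjusted p = 0.0183), but without GFP replicate 2 or AML1/ETO replicate 2, or with the Gapdh covariate, it did not, and when dim values were raised to the bound the difference was -0.10 (limma adjusted p = 0.594). No fold is given for Ciita, and 5 of the 7 genes above background fell.

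**Figure D2:**
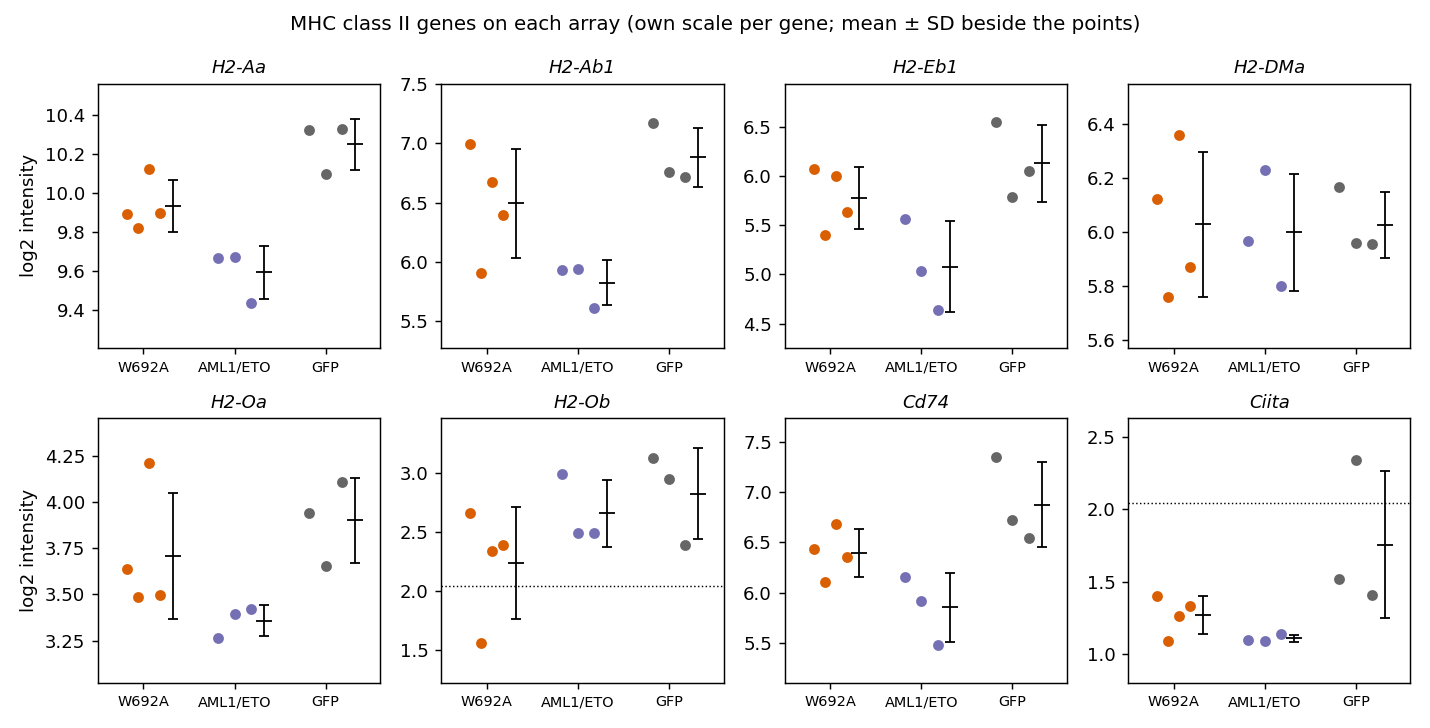
The log2 intensity of each class II gene on every array (points, in replicate order) with the group mean and SD (black, n = 4 W692A, 3 AML1/ETO, 3 GFP), each gene on its own scale; the dotted line is the background bound where it lies in range. For H2-Aa, H2-Ab1, H2-Eb1, H2-Oa and Cd74 every AML1/ETO array lies below every GFP array, and the W692A mean lies between those of the other groups, while the groups overlap for H2-DMa and H2-Ob.

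With W692A, 0 of the 8 genes passed against GFP (limma), where 9.07% of all genes passed as lower and 5.45% as higher (17.7% as lower among genes above background). An unadjusted p under 0.05 was reached by 4 of the 8 and by 26.0% of all genes. The differences were negative for 7 of the 8, with a median of -0.37 against 0.01 over all genes. The count depends on RNA quality, since the Gapdh differences of the W692A and GFP arrays do not overlap. With the Gapdh difference as a covariate Cd74 passed at -1.12, and H2-Eb1 and H2-Ab1 were -1.10 and -0.89 without passing. Such a fit separates construct and RNA quality poorly. Without GFP replicate 1, Cd74 was -0.24 and did not pass. H2-Aa had 9.90, 9.82, 10.12 and 9.90 with W692A, against 10.32, 10.10 and 10.33 with GFP. Only W692A replicate 3 reached into the GFP range, and the log2 difference was -0.32 ± 0.118 (SE, 4 arrays against 3, limma adjusted p = 0.0939), with a 95% interval of -0.57 to -0.06. Cd74 had 6.43, 6.11, 6.68 and 6.36 with W692A, against 7.35, 6.72 and 6.55 with GFP. Its difference was -0.48 ± 0.198 (limma adjusted p = 0.134), and replicate 3 was the array that overlapped.

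H2-Ab1 had 6.99, 5.91, 6.68 and 6.40 with W692A, against 7.17, 6.76 and 6.72 with GFP. Replicate 1 lay inside the GFP range and replicate 2 within the AML1/ETO range, and the difference was -0.39 ± 0.206 (limma adjusted p = 0.262). H2-Eb1 had 6.08, 5.40, 6.01 and 5.64 with W692A, against 6.55, 5.78 and 6.06 with GFP (difference -0.35 ± 0.225, limma adjusted p = 0.375). H2-Oa read 3.64, 3.49, 4.21 and 3.50 with W692A, and its highest value, on replicate 3, exceeded every GFP array. H2-DMa read 6.12, 5.76, 6.36 and 5.87 with W692A and differed from GFP by 0.00 (95% interval -0.32 to 0.32). H2-Ob had 2.66, 1.56, 2.34 and 2.40 with W692A, with replicate 2 below the bound, and its difference of -0.59 did not pass (limma adjusted p = 0.118). Ciita read 1.40, 1.09, 1.26 and 1.33 with W692A, all below the bound, and it was the only one of the 8 with every W692A array below every GFP array, as 12.5% of all genes had.

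Set directly against intact AML1/ETO, W692A arrays had higher H2-Ab1 and H2-Eb1. These 2 of the 8 genes passed as higher, where 9.61% of all genes did (19.2% of those above background), and 0 passed as lower, where 11.1% of all genes did. H2-Ab1 was 1.59-fold higher with W692A (log2 difference 0.67 ± 0.206, limma adjusted p = 0.0309) and H2-Eb1 1.63-fold higher (0.70 ± 0.225, limma adjusted p = 0.0375). For both genes W692A replicate 2 fell among the AML1/ETO arrays. H2-Aa was 1.27-fold and Cd74 1.45-fold higher with W692A without passing (limma adjusted p = 0.0561 and 0.0714). Every W692A array exceeded every AML1/ETO array for H2-Aa and H2-Oa, which 13.7% of all genes did. The median log2 difference was 0.34 over the 8 genes and 0.03 over all genes.

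The calls between the fusions were lost when some of the arrays were left out. Without AML1/ETO replicate 2 or 3, or W692A replicate 1, 3 or 4, 0 of the 8 genes passed, and without AML1/ETO replicate 1 H2-Eb1 and Cd74 did. With the Gapdh difference as a covariate the differences of H2-Ab1 and H2-Eb1 were 0.47 and 0.40 (limma adjusted p = 0.178 and 0.238), and with the spike-in signal 0.63 and 0.60 (limma adjusted p = 0.104 and 0.154). Against GFP, by contrast, the falls of H2-Aa, H2-Ab1 and Cd74 with AML1/ETO passed under each of 22 alternatives, and that of H2-Eb1 under 21. Of these alternatives, filters on dim genes and leaving out a W692A array cannot change the differences, only their spread or adjustment. The comparisons of the fusions with GFP share the GFP arrays, and those with AML1/ETO share the AML1/ETO arrays.

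**Figure D3:**
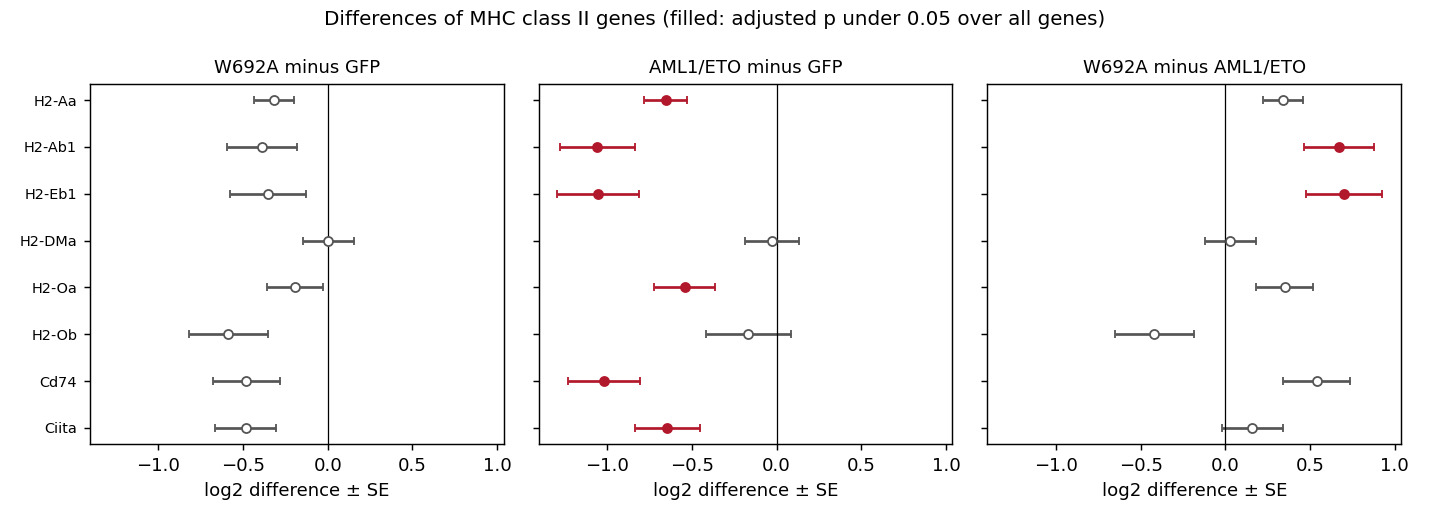
Log2 differences with their standard errors for the 8 class II genes in each comparison, filled where the limma adjusted p over all genes is under 0.05. In the AML1/ETO minus GFP panel 6 genes are filled and negative, in the W692A minus GFP panel 0 are filled, and in the W692A minus AML1/ETO panel H2-Ab1 and H2-Eb1 are filled and positive.

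Within a group, the same arrays were often the lowest or the highest. Among the 7 genes above background, W692A replicate 2 was the lowest of its group for all 7, W692A replicate 3 the highest for 4 and replicate 1 the highest for the other 3. AML1/ETO replicate 3 was the lowest of its group for 5 of 7, and GFP replicate 1 the highest of its group for 5 of 7. These ranks were counted for the 7 genes only and not over all genes. They therefore do not show whether an array was low or high for class II genes in particular. The Gapdh difference was 5.04 on AML1/ETO replicate 3, while replicates 1 and 2 of that group had 4.08 and 4.01, and its part in the values was tested only as a covariate and by leaving that array out. Without it the falls of H2-Aa, H2-Ab1, H2-Eb1 and Cd74 against GFP still passed.

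Other probe sets bore on the choice made for each gene. Probe sets whose names end in x_at or s_at contain probes that can match more than 1 transcript, and the chosen sets of H2-Aa (x_at) and H2-Ab1 (s_at) are of these kinds. All 3 other probe sets of H2-Aa also fell with AML1/ETO, by 0.81, 0.61 and 0.85 on the log2 scale (limma adjusted p = 0.000145, 0.0450 and 0.0244 over all probe sets). They too are x_at or s_at sets, so none is free of this limit. The set that fell by 0.61 was above the bound on 7 of 10 arrays, with an AML1/ETO mean of 1.96. The second brightest H2-Aa set differed between all groups. Its W692A arrays lay below the GFP arrays by 0.45 (limma adjusted p = 0.0190) and above the AML1/ETO arrays by 0.36 (limma adjusted p = 0.0453). H2-Ab1 had a further probe set that fell with AML1/ETO (limma adjusted p = 0.00658) and another that did not pass (limma adjusted p = 0.303), both above the bound on at most 2 of 10 arrays. The other H2-DMa probe set differed by 0.43 with AML1/ETO without passing (limma adjusted p = 0.103). The other Ciita sets, above the bound on 0 arrays, differed by -0.27 and -0.19 with AML1/ETO and did not pass (limma adjusted p = 0.257 and 0.371). A set listed for both H2-Ob and Gm20506, above the bound on 1 array, differed by 0.10 (limma adjusted p = 0.849). Cd74, H2-Eb1 and H2-Oa had 1 probe set each.

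**Figure D4:**
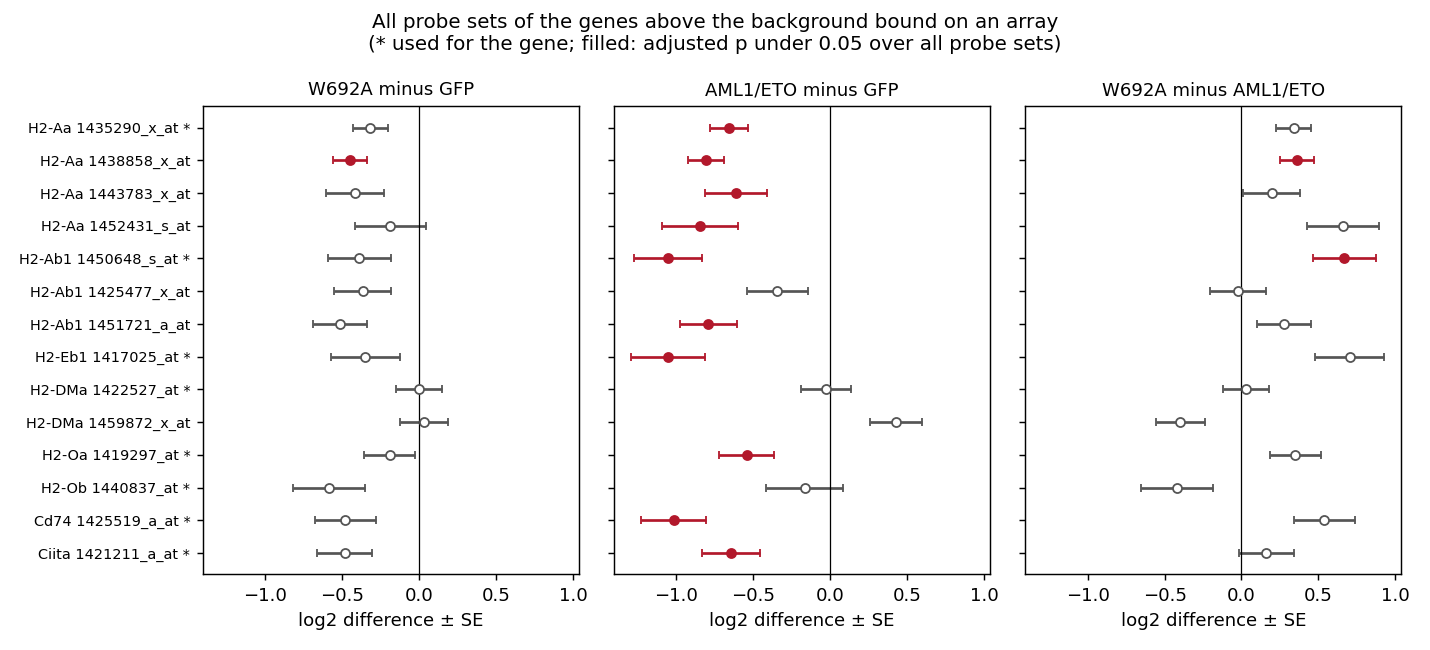
Log2 differences with standard errors for each probe set of the class II genes that exceeded the background bound on at least 1 array, filled where the limma adjusted p over all probe sets is under 0.05; a star marks the set used for the gene. All 4 H2-Aa sets are negative with AML1/ETO against GFP, and both H2-DMa sets lie near or above 0.

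Class II partner genes and subunits of the promoter complex were examined beside the 8 genes. Of 10 measured, 2 fell and 0 rose with W692A against GFP, 4 fell and 0 rose with AML1/ETO against GFP, and 2 were higher and 0 lower with W692A than with AML1/ETO. Of these 10, 8 were above background, where the shares of all such genes were 17.7% lower with W692A, 29.9% lower with AML1/ETO and 19.2% higher with W692A than with AML1/ETO. Their median log2 differences were -0.11, -0.12 and 0.20 in these comparisons. H2-DMb2, a beta chain of H2-M, had 4.08, 3.47 and 3.41 with AML1/ETO, against 5.21, 5.27 and 5.07 with GFP, a log2 difference of -1.53 (limma adjusted p = 2.39e-06). On the W692A arrays it read 4.51 to 4.54, below every GFP array and above every AML1/ETO array, with differences of -0.65 against GFP (limma adjusted p = 0.00658) and 0.87 against AML1/ETO (limma adjusted p = 0.000488). A second H2-DMb2 probe set did the same, whereas 2 sets listed for both H2-DMb1 and H2-DMb2 differed by -0.12 and -0.20 with AML1/ETO and did not pass. The H2-DMb2 promoter held the Y box core but no GCAAC.

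Rfx5, a subunit of the RFX complex that binds the X box, fell by 0.82 on the log2 scale with AML1/ETO and by 0.67 with W692A against GFP (limma adjusted p = 0.00015 and 0.00139), and did not pass between the fusions. The other 2 that fell with AML1/ETO, named after their values were seen, were Nfyb (log2 difference -0.73), a subunit of the NF-Y factor of the Y box, and Creb1 (-0.73). Nfyb was 0.59 higher with W692A than with AML1/ETO (limma adjusted p = 0.0172). H2-Ea, which is not expressed in C57BL/6 mice, gave 2.77 to 3.42 on the W692A arrays, 2.80 to 2.93 on the AML1/ETO arrays and 2.87 to 3.02 on the GFP arrays, above the background bound and without passing in any comparison. A value above the bound is thus no proof of a transcript. This limit bears on H2-Ob, which read 1.56 to 3.13 and is counted among the 7 genes above background.

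Among 12 measured genes known to induce or repress Ciita, 2 rose and 3 fell with AML1/ETO against GFP, with a median log2 difference of 0.07. Of all genes, 12.9% rose and 15.8% fell in this comparison, shares near those of the list. Spi1, the transcription factor PU.1, had 1.85, 2.05 and 2.13 with AML1/ETO, against 2.80, 2.97 and 3.32 with GFP (log2 difference -1.02, limma adjusted p = 0.000288). Background limits the size of this fall, since the AML1/ETO values lie around the bound. Irf1, which carries the interferon gamma signal to Ciita, fell by 0.72 (limma adjusted p = 0.000134), Irf2 rose by 0.61 and Jak1 by 0.42. With W692A, 1 rose and 4 fell against GFP (median 0.06), where 5.45% and 9.07% of all genes did. Irf8, a factor of dendritic and B cells, was 0.77 higher and Jak2 fell by 0.68, and Irf4, with a difference of -1.31, was below the bound on all 4 W692A arrays. Irf1 and Spi1, named after their values were seen, fell with W692A too, by 0.49 and 0.59 (limma adjusted p = 0.00483 and 0.0217). Neither Irf1 nor Spi1 passed between the fusions (limma adjusted p = 0.159 and 0.0787). Between the fusions, 2 were higher with W692A, Ifngr2 by 0.78 and Irf8 by 0.62, and 3 were lower, among them Jak2 (-0.56) and Irf2 (-0.54), with a median of -0.14. Of all genes, 9.61% were higher and 11.1% lower between the fusions.

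Genes of peptide processing moved in both directions. Of 9 measured, 4 rose and 2 fell with AML1/ETO against GFP (median log2 difference 0.10), where 12.9% and 15.8% of all genes did. The protease genes Ctsl, for cathepsin L, rose by 1.94 and Ctsh, for cathepsin H, fell by 1.84 on the log2 scale (limma adjusted p = 1.63e-05 and 1.54e-07), and Ifi30, a thiol reductase of the endosome, fell by 0.66 (limma adjusted p = 0.000501). Marchf8, a membrane ubiquitin ligase, rose by 1.64, a size that background limits, since its GFP arrays read 1.79, 2.03 and 2.06, around the bound. The other 2 that rose, named after their values were seen, were Ctss, the protease that trims the invariant chain, and Ctsd, for cathepsin D. They rose by 0.86 and 0.83 with AML1/ETO (limma adjusted p = 0.000266 and 7.2e-05). With W692A, 3 rose and 1 fell against GFP, where 5.45% and 9.07% of all genes did. Ctss was 0.71 higher (limma adjusted p = 0.00227), Ctsd 0.45 higher (limma adjusted p = 0.0133), Marchf8, with the same limit, 0.48 higher and Ctsh 1.04 lower (difference -1.04). Between the fusions Ctsh and Ifi30 were higher with W692A by 0.80 and 0.49, and 3 genes were lower, Ctsl (-1.84), Marchf8 (-1.16) and Ctsd (-0.38). Ctss did not pass between the fusions (-0.15, limma adjusted p = 0.531). Of all genes, 9.61% were higher and 11.1% lower with W692A than with AML1/ETO. For Ctsh and Ifi30 every W692A array lay above every AML1/ETO array.

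**Figure D5:**
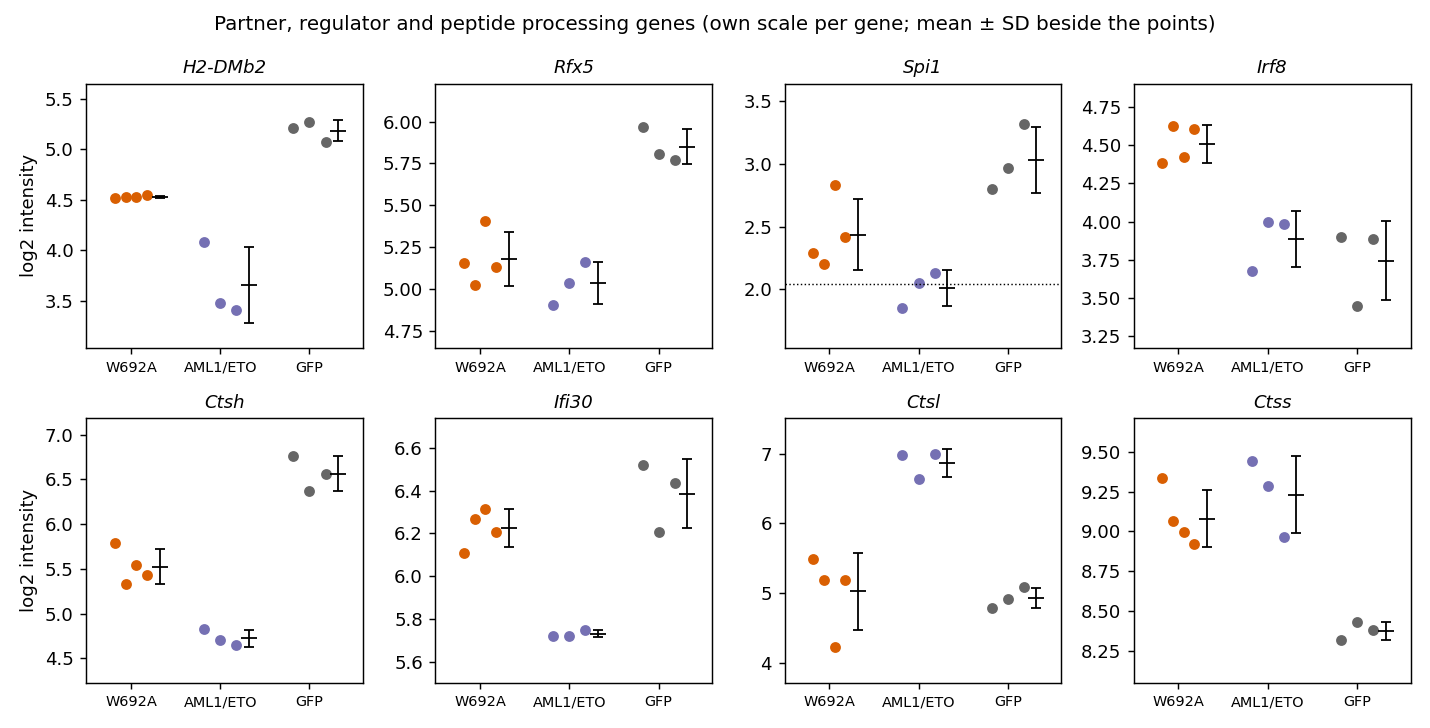
The log2 intensity of 8 partner, regulator and peptide processing genes on every array (points) with the group mean and SD (black), each on its own scale; the dotted line in the Spi1 panel is the background bound. H2-DMb2, Ctsh and Ifi30 have every AML1/ETO array below every W692A and GFP array, Rfx5 is lower with both fusions than with GFP, and Ctsl is high with AML1/ETO only.

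Of 7 costimulation genes, 1 rose and 2 fell with AML1/ETO, 3 fell with W692A against GFP, and 3 were lower with W692A than with AML1/ETO. Of all genes, 12.9% rose and 15.8% fell with AML1/ETO, 9.07% fell with W692A, and 11.1% were lower between the fusions. The 2 that fell with AML1/ETO, Cd80 and Icosl, and 1 of the 3 that fell with W692A, Icosl, were below the bound and are named after their values were seen. The median log2 differences were -0.20, -0.78 and -0.68 in that order. Cd274, which encodes PD-L1, rose by 0.62 with AML1/ETO. Cd83, a maturation marker of dendritic cells that holds class II molecules at the surface, and Pdcd1lg2, for PD-L2, had differences of -1.05 and -0.81 with W692A against GFP, and Pdcd1lg2 and Cd40 of -1.19 and -1.04 with W692A against AML1/ETO.

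Most markers of B cells and dendritic cells were at background, and most of those of monocytes and macrophages were not. Of 9 measured B cell markers, 6 were at or below the bound on every array, among them Cd79a, Ms4a1, Pax5 and Ebf1. The summed intensity of the 9, on the linear scale, was 57.1 to 73.3 with W692A, 71.6 to 125 with AML1/ETO and 73.4 to 92.6 with GFP. Of the 3 above it, Cd79b passed in no comparison. Blnk rose by 1.13 with AML1/ETO (limma adjusted p = 0.00232) and did not pass with W692A against GFP. Fcer2a fell by 1.30 with AML1/ETO and by 1.86 with W692A, to means below the bound. Of 9 dendritic cell markers, 6 were at or below the bound on every array, among them Itgax, Zbtb46, Siglech and Xcr1, and the sums were 44.2 to 54.3 with W692A, 60.8 to 81.9 with AML1/ETO and 66.2 to 91.6 with GFP. Of the 3 above it, Batf3 and Ccr7 fell with both fusions, Batf3 by 1.77 with W692A and by 1.67 with AML1/ETO. Bst2 rose by 0.55 with W692A and by 1.69 with AML1/ETO (limma adjusted p = 0.0325 and 2.34e-06), and the part of such cells in the class II values was not tested. Of 8 monocyte and macrophage markers, 2 were at or below the bound on every array and Csf1r, Adgre1, Cd68, Cd14, Lyz2 and Mrc1 were above it on at least 1. The sums were 666 to 754 with W692A, 844 to 1130 with AML1/ETO and 304 to 387 with GFP, and 4 of the 8 markers rose with each fusion against GFP. Of all genes, 5.45% rose and 9.07% fell with W692A, and 12.9% rose and 15.8% fell with AML1/ETO. All 4 T cell markers were at or below the bound on every array. Of the 9 stem and progenitor markers, 6 rose and 1 fell with W692A, and 7 rose and 1 fell with AML1/ETO, each against GFP. Their sums were 543 to 665 with W692A, 934 to 1026 with AML1/ETO and 224 to 254 with GFP. Hlf weighs much in these sums, at 8.41, 8.42 and 8.42 with AML1/ETO against 3.71, 4.36 and 4.32 with GFP. Flt3 went the other way, at 4.10, 4.16 and 4.04 against 5.20, 4.99 and 5.01, and Meis1 overlapped between these groups. Kit read higher with AML1/ETO than with GFP, but below the bound on every array. The part of these shifts in the class II values was not tested.

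The genes whose pattern was most like that of the class II genes were found by averaging the 7 above background as z-scores over the 10 arrays. Out of 8294 other genes with a mean above the bound, the nearest were Jpt1 (Pearson r = 0.97, Spearman rho = 0.99, n = 10 arrays), Nf2 (r = 0.95, rho = 0.96), Sap30bp (r = 0.94, rho = 0.95), Cenpx (r = 0.92, rho = 0.89) and D11Wsu47e (r = 0.92, rho = 0.90). None is a member of the lists described above, and each averaged lowest with AML1/ETO, between with W692A and highest with GFP. Jpt1 averaged 8.33 with W692A, 8.12 with AML1/ETO and 8.56 with GFP. The correlations are a description over arrays that fall into 3 groups, and the average also varied within groups. It was -0.92 on W692A replicate 2, below AML1/ETO replicates 1 and 2 (-0.42 and -0.52). On W692A replicate 3 it was 0.77, above GFP replicates 2 and 3 (0.39 and 0.53). The average includes H2-DMa and H2-Ob, which passed in no comparison.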

How the data were processed

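RNA of 10 samples was amplified from 50 ng in more than 1 round, biotin labelled and hybridised to 1 Affymetrix array each. The deposited log2 intensities, 1 per probe set and array, were made by the authors with RMA, per the submitters' processing notes. No version is given in the sources used here. Base 2 was inferred, since natural logarithms would put the brightest probe set at 350219, past the 65535 that a scanner records. RMA sets the probes of all arrays to 1 distribution, which hides differences in total RNA. The gene values used here were not fully on 1 distribution. Further quantile normalization changed the W692A minus GFP calls from 991 higher and 1651 lower to 1262 and 1352. Precision is limited by the number of arrays.

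Of 45101 probe sets, 34945 were listed with 1 gene. Those listed with several (932) were not used for genes. Symbols were updated by gene identifier (GRCm38.p6) for 34741. Groups were compared with limma 3.58.1 (R 4.3.3; lmFit, eBayes) in 1 fit of 3 groups with 7 residual degrees of freedom, adjusted by Benjamini-Hochberg over 18193 genes, threshold 0.05. The fit was tested on simulated data. Named genes were the 8 members and, per list and comparison, up to 2 rises and 2 falls above background. Others are named outside this rule, after their values were seen. They are Nfyb, Creb1 and Ctss with AML1/ETO, Irf1 and Spi1 with W692A, Ctsd, H2-Ea, Cd80, Icosl and the cell type markers. Irf1, Spi1 and Ctss between the fusions are also of this kind. Members and lists were chosen with earlier results of these data known. Some list members were not analysed here. Alternatives were filters on dim genes, probe set rules, further normalization, variance priors, array weights, covariates, a replicate block, a 1.5-fold minimum and leaving out each array.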

Additional observations from a re-analysis of the deposited data

Results flagged for a closer look

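Among 28 groups of 4 W692A values examined, 2 held an array far from the other 3, where chance alone gives about 1 in 20. Ifngr2, which encodes a chain of the interferon gamma receptor, read 6.3234 on W692A replicate 4 and 6.1329 to 6.1579 on the other W692A arrays. Nfyb, an NF-Y subunit, read 5.3148 on W692A replicate 1 and 4.7884 to 4.8525 on the other W692A arrays. Groups of 3 arrays were not examined in this way.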

How the results depend on the processing

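With AML1/ETO against GFP, H2-Aa, H2-Ab1 and Cd74 kept their direction and call under all 22 alternatives and H2-Eb1 under 21; with dim values raised to the bound its adjusted p (limma) was 0.0505 at an unmoved difference. H2-Oa lost its call under 8 of 22 and Ciita under 4 of 21. W692A against GFP gained H2-Aa under 2 alternatives (averaged probe sets, trended prior), Cd74 with the Gapdh covariate (-1.12, against -0.48 without it; H2-Eb1 was then -1.10 against -0.35 and H2-Ab1 -0.89 against -0.39, neither called; without GFP replicate 1 the 3 were -0.24, -0.14 and -0.24, and without W692A replicate 2 -0.38, -0.23 and -0.19), Ciita with the spike-in covariate, and H2-Ob and Ciita without GFP replicate 3. Between the fusions, H2-Ab1 lost its call under 10 and H2-Eb1 under 8 of 22, while Cd74 gained one under 7 and H2-Aa under 6. H2-DMa, never called, changed sign. For AML1/ETO minus GFP it gave 0.1999 with averaged probe sets, 0.0221 after quantile normalization, 0.1916 with the spike-in covariate and -0.1432 to 0.0721 without 1 array. For W692A minus AML1/ETO it gave -0.1835 with averaged probe sets, -0.0221 with array weights, -0.1447 and -0.1190 with the Gapdh and spike-in covariates, and -0.0809 to 0.1451 without 1 array. For W692A minus GFP it gave -0.0470 with array weights, -0.4339 with the Gapdh covariate and -0.1088 to 0.0914 without 1 array. Genes past the threshold numbered 2642 for W692A minus GFP, 5207 for AML1/ETO minus GFP and 3765 for W692A minus AML1/ETO. Testing every probe set gave 4006, 8621 and 6023, by testing more features; a minimum of 1.5-fold left 1637 and 2317 for the comparisons of W692A with GFP and with AML1/ETO; the Gapdh covariate, whose W692A and GFP values do not overlap, left 506 for W692A minus GFP. After quantile normalization the W692A minus GFP calls were 1262 higher and 1352 lower, against 991 and 1651 without it; with array medians subtracted those between the fusions were 2220 and 1682, against 1748 and 2017 without. Other causes were not tested. Deviations of same-numbered arrays of different groups correlated at 0.26 to 0.46 for replicate 1, -0.03 to 0.01 for replicate 2 and -0.13 to 0.34 for replicate 3, so the numbers were not taken to pair the samples, although those of replicate 1 moved together; with the replicate block the counts were 2344, 5272 and 3509, and the same class II genes passed. Genes near background, such as Ciita and H2-Ob, are limited by signal.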
